A study of Mus musculus with 12 samples.

Results

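MIN6 cells to which amino acids were returned in the presence of Rap are compared here with MIN6 cells to which amino acids were returned alone, each for 3 h. It uses 6 of the 12 libraries of the series, 3 in each group, and all 49315 genes of the count files, of which 16844 had enough reads to be tested. MIN6, an established insulin-secreting line from a mouse insulinoma, serves as a β-cell model. All 12 libraries were made from total RNA of the wild-type line, grown in DMEM with fetal bovine serum and glutamine. The other 6 libraries are 3 of untreated control cells and 3 of cells kept without amino acids for 16 h, called starved here. They are given as reference levels and they enter the same model. The groups are called control, starved, re-added and Rap below. The labels abbreviate the agent as Rap and do not spell the name out. They give neither its dose nor the length of starvation before amino acids were given back, and no library holds Rap without amino acids. Nothing in them tells if separate cultures gave the 3 libraries of each group, and p-values therefore reflect spread that could be technical only.

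The title of the series names mTORC1, the protein kinase complex built around mTOR. mTORC1 is recruited to the lysosome by the Rag GTPases when amino acids are plentiful, and it is switched on there by the small GTPase RHEB, which lies downstream of insulin signalling. Active mTORC1 promotes ribosome production, translation, lipid and nucleotide synthesis and glycolysis, partly through the transcription factors SREBP, HIF1, MYC and ATF4. It also holds back autophagy and lysosome production, by phosphorylating ULK1 and ATG13 and by keeping TFEB and TFE3 in the cytoplasm. FoxO factors are held back by the kinase AKT, which mTORC1 restrains through feedback on insulin signalling. In β-cells these pathways bear on cell growth and on insulin production. The comparison therefore asks which transcript changes of amino acid re-addition differed when Rap was present.

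Short promoter stretches are printed here to show what the motifs counted at the end of the report look like in genes that were called. They are from the RefSeq promoter table of GRCm38.p6, which covers 250 bases before to 50 bases after a start site, and are written 5′ to 3′ in the direction of the gene. Capitals mark the motif, and only bases before the start site are shown. The genes were chosen after their values were seen, as those of at least 5 CPM (reads per 1000000 counted reads) with a proper symbol that changed most among the called genes whose motif lies wholly before the start site. Genes with larger changes whose motif overlaps or follows the start site, such as Frat1 and Frat2 for the FoxO motif and Iars for TGATGCAA, are therefore not shown. Most of the printed genes outside the tRNA synthetases are not members of the gene lists used below. The first 4 were higher with Rap and hold the FoxO motif GTAAACA or its reverse complement:
Hbp1, chr12:31950368-31950414, minus strand: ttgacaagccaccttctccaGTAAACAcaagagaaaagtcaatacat
Gpr146, chr5:139389821-139389867, plus strand: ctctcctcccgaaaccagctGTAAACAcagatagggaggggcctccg
Pim1, chr17:29492995-29493041, plus strand: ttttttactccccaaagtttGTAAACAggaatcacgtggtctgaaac
Akr1c13, chr13:4191139-4191185, plus strand: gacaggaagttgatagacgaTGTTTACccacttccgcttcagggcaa

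The next 3 were also higher with Rap and hold TCACGTGA, the E-box form bound by TFEB and TFE3 in promoters of lysosomal genes. It contains the general E-box CACGTG.
Crebrf, chr17:26715504-26715551, plus strand: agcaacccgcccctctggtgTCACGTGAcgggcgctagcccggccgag
Dyrk1b, chr7:28179435-28179482, plus strand: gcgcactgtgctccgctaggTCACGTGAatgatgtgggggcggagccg
Klc4, chr17:46646081-46646116, minus strand: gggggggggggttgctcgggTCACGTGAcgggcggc

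Another 3 were lower with Rap and hold TGATGCAA, the core of the element bound by ATF4 with C/EBP partners, here on the opposite strand and therefore read as its reverse complement.
Chac1, chr2:119351029-119351076, plus strand: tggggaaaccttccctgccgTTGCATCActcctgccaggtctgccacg
Tars, chr15:11399659-11399693, minus strand: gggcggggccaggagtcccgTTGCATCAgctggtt
Aars, chr8:111033710-111033757, plus strand: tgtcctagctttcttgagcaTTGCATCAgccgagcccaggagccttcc

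The last 3 were lower with Rap and hold GACGTG, the core of a hypoxia response element bound by HIF1, on either strand.
Pfkfb3, chr2:11553965-11554010, minus strand: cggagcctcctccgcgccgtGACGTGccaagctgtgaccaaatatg
Cckbr, chr7:105425528-105425573, plus strand: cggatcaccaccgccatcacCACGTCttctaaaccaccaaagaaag
Dpf1, chr7:29303803-29303848, plus strand: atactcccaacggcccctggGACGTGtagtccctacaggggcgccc

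Over all genes tested, 1344 differed between Rap and re-added cells at an adjusted p under 0.05 in the quasi-likelihood test of edgeR, which is 7.98% of them. These are the genes named as called, higher or lower. With Rap 766 genes were higher (4.55% of those tested) and 578 were lower (3.43%). Most changes were small, with a median absolute log2 fold change of 0.48 among the called genes. At least 2-fold changes were mostly rises, with 100 genes higher and 7 lower. The median over all genes tested was 0.00 on the log2 scale. For scale, amino acid re-addition against starvation gave 3100 higher genes (18.4%) and 3175 lower ones (18.8%). That comparison shares the re-added libraries with the present one, so values of both are only set side by side.

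The number of calls depended on which libraries entered the fit. With only the 6 re-added and Rap libraries in the model, 3959 genes were called (1829 higher, 2130 lower), and 1341 of the 1344 genes above were called in the same direction. Leaving out 1 of the 6 libraries gave between 635 calls (without re-added replicate 3) and 1044 calls (without re-added replicate 1). On the deposited TPM values, which are not rescaled between libraries, limma called 565 genes higher and 1381 lower, so that the share of rises among the calls fell from 56.99% to 29.03%. These are 3.36% and 8.22% of the 16793 genes tested on TPM values, and the median over all of them was -0.08. List counts and medians on TPM values below are to be read against these. No gene called above was called in the opposite direction under any of these settings. Counts for gene groups are given below from the 12-library fit, with the 6-library count beside them. The former are to be read against 4.55% higher and 3.43% lower over all genes. The latter are to be read against 12.04% higher and 14.03% lower of the 15187 genes tested in that fit. Counts with 1 library left out are to be read against the shares over all genes in that setting. Without re-added replicate 2 or 3 or any Rap replicate, 2.275% to 2.460% were higher and 1.429% to 1.566% lower. These shares were 2.946% and 3.096% without re-added replicate 1, 6.796% and 5.179% without control replicate 2, and 4.948% and 3.866% without control replicate 3. Without any 1 starved replicate, 3.973% to 4.291% were higher and 4.539% to 5.024% lower. The 3 libraries of each group did not overlap for 6553 of the 16844 genes (38.90%), so that a gap between groups alone is common.

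The libraries held 18555958 to 25631056 counted reads, and re-added and Rap totals did not differ beyond the spread (exact two-sided permutation test over 3 against 3 libraries, p = 0.3, where the smallest possible p is 0.1). Re-added replicate 1 carried more transcripts of other cell types than the other 5 libraries. Markers of fibroblasts, leukocytes and endothelium summed to 694 CPM there, while re-added replicates 2 and 3 gave sums of 124.6 and 122 CPM and Rap libraries gave 116, 113 and 109 CPM (raw library totals; exact permutation p = 0.1, the smallest possible). Lung epithelium markers summed to 658, 75.8 and 52.0 CPM in re-added and to 45.9, 43.6 and 38.5 CPM in Rap libraries. Starved libraries held 1681, 125 and 806 CPM and control libraries 1720 to 2052 CPM of the first 3 marker lists. Among genes without a call, 1162 were at least 2-fold lower with Rap, and in 1105 of these (95.1%) re-added replicate 1 had the highest value of the 6 libraries. Of the 30 listed markers of those 3 cell types 29 were tested and 0 were called, nor were any of the 5 lung markers. Only Lum and Emcn were at 0 in any of the 6 libraries. Many of these genes spread widely within groups, so the lack of calls does not show equal levels. In the edgeR test Lyz2 was at -3.02 (adjusted p = 0.14) and Sftpc at -2.88 (adjusted p = 0.115). These sums move with the group means, and results are given with and without that library where it matters. Where the transcripts of other cell types came from was not tested, and their presence does not show that such cells were in the cultures. In bulk RNA, fewer cells of a type and less RNA per cell cannot be told apart. The β-cell markers summed to 34300 to 39510 CPM in re-added and to 39280 to 42450 CPM in Rap libraries and included Ins1, Ins2 and Pdx1 in every library. Their members did not move alike. On raw library totals, Ins1, Pdx1, Pcsk1 and Abcc8 were higher in all Rap than in all re-added libraries, while Slc2a2, Nkx6-1, G6pc2 and Slc30a8 were lower. Ins2 and Iapp overlapped on raw totals. The narrow gaps depended on the scaling: in the scaled CPM used for the calls, Ins2 and Iapp did not overlap, whereas Slc30a8 did. None of these markers was called in the 12-library fit. In the 6-library fit G6pc2 and Nkx6-1 were called lower, and Ins1, Ins2 and Abcc8 higher.

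**Figure D1:**
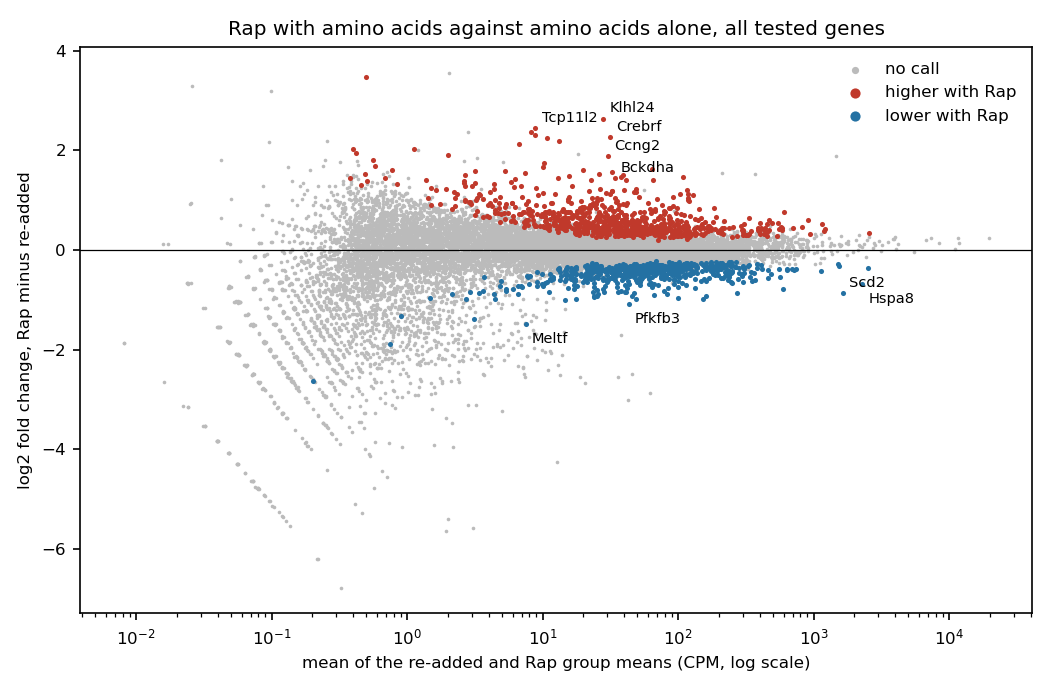
Each point is 1 of the 16844 tested genes, with the mean of the re-added and Rap group means in CPM on a log axis and the log2 fold change of Rap minus re-added on the vertical axis. Red points are the 766 genes higher and blue points the 578 genes lower with Rap in the edgeR test; the grey cloud at the lower left holds most of the 1162 uncalled genes that were at least 2-fold lower.

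The 10 largest rises among genes of at least 5 CPM lay between 1.74 and 2.64 on the log2 scale, and several belonged to the FoxO and Ypel lists described further on. Klhl24 (chromosome 16, 20097554 to 20127744, plus strand), whose protein is an adaptor of a CUL3 ubiquitin ligase, stood at 10.1, 6.05 and 7.16 CPM in re-added and at 47.5, 51.97 and 45.6 CPM in Rap libraries. The groups were far apart (log2 fold change 2.64 with SE 0.21, adjusted p = 1.8e-05). Its level was 116 ± 12.6 CPM in starved and 28.5 ± 7.15 CPM in control cells (SD, n = 3), so that Rap cells lay between starved and re-added cells. Tcp11l2, whose role is little known, went from 3.405, 2.33 and 2.47 to 16.04, 13.4 and 15.5 CPM (log2 fold change 2.45 with SE 0.15, adjusted p = 3.6e-06). Coq8a, an atypical kinase of coenzyme Q synthesis, went from 3.02, 3.33 and 2.56 to 15.01, 14.6 and 14.5 CPM (log2 fold change 2.31 with SE 0.13, adjusted p = 2.5e-06), close to its mean of 13.9 CPM in starved cells. Crebrf, a regulator of the endoplasmic reticulum stress factor CREB3, went from 11.2, 9.72 and 11.4 to 50.6, 53.6 and 51.7 CPM (log2 fold change 2.27 with SE 0.13, adjusted p = 2.3e-06), against 77.6 CPM in starved cells.

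Frat1 and Frat2 with Rap exceeded even the starved level. They encode proteins that bind the kinase GSK3 and favour WNT signalling. Frat1 stood at 3.75, 3.62 and 3.88 CPM in re-added and 16.97, 18.9 and 17.2 CPM in Rap libraries (log2 fold change 2.24 with SE 0.19, adjusted p = 3.5e-05). Its means in control and starved cells were 4.62 ± 1.08 and 6.12 ± 1.07 CPM, so that the 3 Rap libraries held the highest level of the 4 groups. Frat2 behaved alike, with 4.13, 4.48 and 5.46 CPM against 18.1, 15.01 and 14.00 CPM (log2 fold change 1.74 with SE 0.26, adjusted p = 0.00162) and means of 5.67 and 10.2 CPM in control and starved cells.

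The largest falls were smaller than the largest rises. Meltf, which encodes the iron-binding membrane protein melanotransferrin, stood at 10.8, 10.9 and 11.5 CPM in re-added and at 3.58, 4.58 and 3.67 CPM in Rap libraries (log2 fold change -1.49 with SE 0.18, adjusted p = 3.8e-04). Starved cells held 0.866 ± 0.213 CPM and control cells 7.82 ± 0.696 CPM. Trmt61a, the catalytic subunit of a tRNA methyltransferase, went from 30.6, 31.8 and 32.5 to 15.1, 16.4 and 18.2 CPM (log2 fold change -0.93 with SE 0.11, adjusted p = 3.6e-04), and control and starved cells held 10.4 and 11.6 CPM. Acot7, an acyl-CoA thioesterase, differed by -0.98 (adjusted p = 0.0104) and lost the call without Rap replicate 1. Scd1 (-0.99), Col6a3 (-1.01) and Ddr2 (-0.99) were also among the 10 largest falls, but all 3 lost the call without re-added replicate 1 and without several other libraries. Without re-added replicate 1 the differences were of similar size, at -0.91 for Scd1, -0.89 for Col6a3 and -0.81 for Ddr2.

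Most genes for building ribosomes were lower with Rap. Of 46 tested members of the ribosome biogenesis and RNA polymerase I list, 34 were lower and 0 were higher, with a median log2 fold change of -0.50 against 0.00 over all genes. In the 6-library fit 44 were lower and 1 was higher, and 24 to 32 were lower when 1 of the 6 libraries was left out. Rrp12, an export and processing factor of pre-ribosomes, stood at 65.03, 66.7 and 64.9 CPM in re-added and at 32.96, 33.6 and 32.2 CPM in Rap libraries (log2 fold change -0.99 with SE 0.07, adjusted p = 1.3e-05). Its control and starved means were 26.7 ± 2.04 and 25.6 ± 1.197 CPM, so that the re-added libraries alone stood out. Ltv1, a factor of small subunit assembly, went from 45.04, 44.1 and 44.3 to 28.2, 25.5 and 26.3 CPM (log2 fold change -0.74 with SE 0.08, adjusted p = 1.8e-04). Noc2l (-0.69, adjusted p = 6.0e-04), Bysl (-0.58, adjusted p = 7.8e-04) and Bop1 (-0.51, adjusted p = 5.4e-04) of large and small subunit maturation also fell. Npm1, the abundant nucleolar chaperone nucleophosmin, was at 366, 382 and 355 CPM against 304, 286 and 304 CPM without passing (log2 fold change -0.30 with SE 0.10, adjusted p = 0.0853). Ubtf, which opens ribosomal DNA for RNA polymerase I, was at 0.22 (adjusted p = 0.111). On re-addition after starvation, 27 members of this list had been higher and 2 lower.

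Ribosomal protein genes did not share that direction. All 79 tested genes of cytosolic ribosomal proteins had a log2 fold change above 0, with a median of 0.25 and a range of 0.05 to 0.54, and 11 of them were called higher and 0 lower. Only 2 to 5 were called when 1 of the 6 libraries was left out, and 7 without starved replicate 3. The 6-library fit called 49, and 30 and 18 were called without control replicates 2 and 3. On TPM values the median was 0.14, with 11 called higher and 0 lower. Rps4x stood at 456, 467 and 408 CPM in re-added and at 651, 635 and 650.4 CPM in Rap libraries (log2 fold change 0.54 with SE 0.09, adjusted p = 0.00361), and Rpl5 at 411, 411 and 377 and 559, 563 and 614 CPM (log2 fold change 0.54 with SE 0.10, adjusted p = 0.00572). Rps6, whose protein is phosphorylated downstream of mTORC1, did not pass (log2 fold change 0.27 with SE 0.10, adjusted p = 0.136), but did in the 6-library fit (0.24, adjusted p = 0.00484). Many ribosomal protein genes have processed pseudogenes, and how reads shared with these were counted is not given in the sources used here. Genes of mitochondrial ribosomal proteins gave 5 lower and 0 higher of 76 (24 lower in the 6-library fit), with a median of -0.12. Their falls numbered 2 or 3 without any 1 of the 6 libraries other than re-added replicate 1, and 8, 9 and 8 without control replicate 2, starved replicate 1 and starved replicate 2. Of these, Mrps18b was at 52.1, 51.98 and 51.6 against 37.6, 38.1 and 37.97 CPM (log2 fold change -0.45 with SE 0.07, adjusted p = 0.00157).

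Translation factors gave 13 lower and 2 higher of 45 tested members, with a median of -0.23 (27 lower and 4 higher in the 6-library fit, and 3 or 4 lower without any 1 of the 6 libraries other than re-added replicate 1, but 20 without starved replicate 1 or 2; 0 higher without any 1 of the 6, 1 without any 1 starved replicate and 4 without control replicate 3). Eif4a1, the RNA helicase of cap-dependent initiation, went from 660.0, 702 and 668 to 476, 461 and 448 CPM (log2 fold change -0.55 with SE 0.07, adjusted p = 6.5e-04). Eif2b4, a subunit of the exchange factor that recharges eIF2, went from 109, 114 and 105 to 80.3, 79.4 and 80.9 CPM (log2 fold change -0.45 with SE 0.06, adjusted p = 0.00102). Eef1a1, the most abundant member, stood at 3749, 3736 and 3482 against 4147, 4492 and 4469 CPM and did not pass (log2 fold change 0.26 with SE 0.08, adjusted p = 0.09). Eef2, the translocation factor of elongation, was called higher (0.34, adjusted p = 0.0193) but lost the call when any 1 of the 6 libraries was left out. Eif4ebp1, which encodes the mTORC1 substrate that blocks cap-dependent initiation, was lower, at 29.3, 29.4 and 29.2 CPM against 19.5, 18.04 and 18.2 CPM (log2 fold change -0.66 with SE 0.10, adjusted p = 0.00167).

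**Figure D2:**
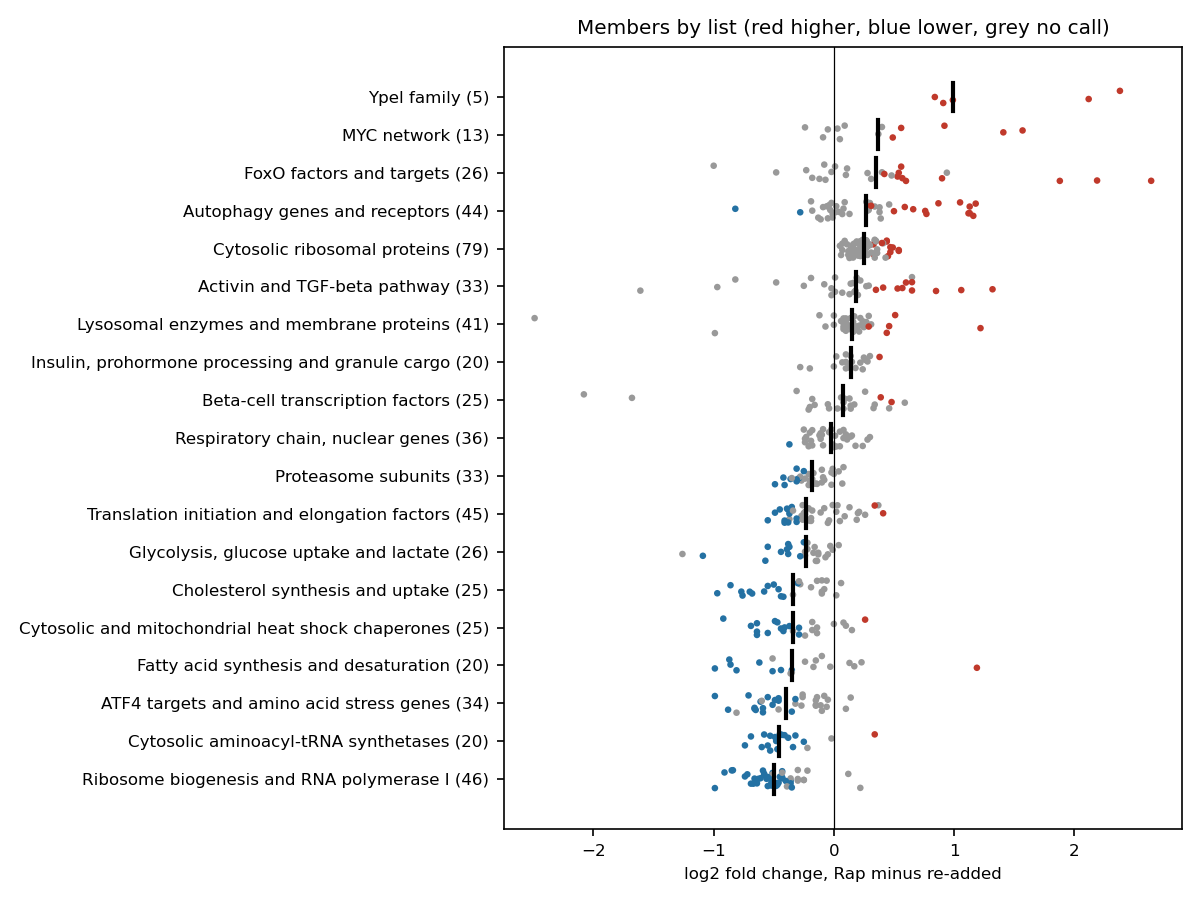
Each point is a tested gene of the list named at the left (number of tested genes in parentheses), placed by its log2 fold change of Rap minus re-added and coloured red where called higher, blue where called lower and grey otherwise; the black bar is the list's median. Medians run from 0.99 for the Ypel family to -0.50 for ribosome biogenesis, and all 79 cytosolic ribosomal protein genes lie above 0 in this fit.

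Amino acid stress genes were among those lower with Rap. ATF4 is the transcription factor made when uncharged tRNA activates the kinase GCN2, and it is also raised by mTORC1. Of 34 tested ATF4 targets and amino acid stress genes, 16 were lower with Rap and 0 were higher, with a median of -0.40 (22 lower in the 6-library fit, and 11 to 14 when 1 of the 6 libraries was left out). Atf4 itself (chromosome 15, 80255184 to 80257540, plus strand) stood at 306, 311 and 293 CPM in re-added and at 199, 178 and 199 CPM in Rap libraries (log2 fold change -0.66 with SE 0.09, adjusted p = 0.0013). Its means were 428 ± 43.4 CPM in starved and 251 ± 25.9 CPM in control cells, so that the Rap group had the lowest mean of the 4. Shmt2, the mitochondrial serine hydroxymethyltransferase, went from 138, 147 and 141 to 88.2, 84.3 and 89.00 CPM (log2 fold change -0.71 with SE 0.07, adjusted p = 1.5e-04). Chac1, which degrades glutathione and whose promoter stretch is printed above, went from 35.2, 37.5 and 36.3 to 20.4, 25.4 and 23.6 CPM (log2 fold change -0.65 with SE 0.10, adjusted p = 0.00202), with 137 CPM in starved cells. On re-addition after starvation 26 of the 34 had been lower and 0 higher. Sesn2 (-0.08, adjusted p = 0.621) and the transporter gene Slc38a2 (0.10, adjusted p = 0.6) did not pass.

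Cytosolic aminoacyl-tRNA synthetases, the enzymes that load tRNAs, gave 17 lower and 1 higher of 20, with a median of -0.46 (18 lower and 1 higher in the 6-library fit, and 11 to 17 lower when 1 of the 6 was left out, with 11 without re-added replicate 2 or Rap replicate 1). Farsb, of the phenylalanine enzyme, went from 78.02, 83.6 and 78.6 to 49.3, 45.5 and 48.9 CPM (log2 fold change -0.74 with SE 0.07, adjusted p = 6.0e-05). Hars, of the histidine enzyme, went from 118, 116 and 117 to 80.6, 82.6 and 79.8 CPM (log2 fold change -0.53 with SE 0.06, adjusted p = 4.5e-04), and Cars, of the cysteine enzyme, from 75.00, 78.4 and 71.96 to 47.6, 46.1 and 45.9 CPM (log2 fold change -0.69 with SE 0.08, adjusted p = 4.9e-04). The list had not moved in 1 direction on re-addition, where 8 members were higher and 8 lower. Qars was the member called higher (0.34, adjusted p = 0.00986), and it lost the call without re-added replicate 3, without Rap replicate 1 and on the TPM values. Wars and Dars were not called (-0.02 and -0.22).

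Serine synthesis and one-carbon folate genes gave 8 lower and 0 higher of 18 (10 lower in the 6-library fit, and 3 to 6 when 1 of the 6 was left out, re-added replicate 1 alone giving 6), with a median of -0.31. Psat1, an aminotransferase of serine synthesis, went from 283, 291 and 277 to 175, 193 and 189.8 CPM (log2 fold change -0.61 with SE 0.10, adjusted p = 0.00408), and the folate enzyme gene Mthfd2 from 129, 137 and 135 to 96.5, 90.2 and 87.5 CPM (log2 fold change -0.55 with SE 0.08, adjusted p = 0.00185). Amino acid transporters were mixed, with 5 lower and 2 higher of 28 tested (9 and 3 in the 6-library fit), and with 2 or 3 lower without any 1 of the 6 libraries other than re-added replicate 1. Slc7a5 and Slc3a2, the light and heavy chains of the leucine transporter LAT1, were both lower (-0.59, adjusted p = 0.00325, and -0.46, adjusted p = 0.00211). Slc38a10 was higher, at 323, 317 and 344 CPM against 447, 446 and 443 CPM (log2 fold change 0.44 with SE 0.08, adjusted p = 0.0062).

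Breakdown of branched-chain amino acids, which include the mTORC1 activator leucine, showed opposite changes of single steps. Bckdha, the E1α subunit of the committing dehydrogenase, stood at 18.5, 17.9 and 18.5 CPM in re-added and at 50.4, 49.1 and 50.3 CPM in Rap libraries (log2 fold change 1.45 with SE 0.09, adjusted p = 3.9e-06), next to a starved mean of 50.5 ± 6.51 CPM. Bckdhb, the partner subunit of the same enzyme, was lower (-0.39, adjusted p = 0.00986), and lost the call without Rap replicate 1. Bcat1, the cytosolic transaminase of the first step, went from 47.4, 50.2 and 48.5 to 30.7, 26.5 and 25.3 CPM (log2 fold change -0.82 with SE 0.09, adjusted p = 2.2e-04). Over the list of 22, 4 were higher and 2 lower (7 and 4 in the 6-library fit, and 1 lower without Rap replicate 1), with a median of 0.09. On TPM values 3 were higher and 4 lower, with a median of -0.01 against -0.08 over all genes.

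Many genes of lipid synthesis were lower with Rap. SREBP factors drive genes of cholesterol and fatty acid synthesis. Of 25 tested genes of cholesterol synthesis and uptake, 13 were lower and 0 higher, with a median of -0.34 (18 lower in the 6-library fit, and 11 when any 1 of the 6 libraries was left out). Lss and Cyp51, the enzymes that make and first trim lanosterol, fell (-0.86, adjusted p = 1.7e-04, and -0.76, adjusted p = 1.5e-04). Hmgcs1 (chromosome 13, 119690462 to 119708086, plus strand), an early enzyme of the pathway, stood at 109.5, 114 and 120.2 CPM in re-added and at 72.7, 74.2 and 67.2 CPM in Rap libraries (log2 fold change -0.68 with SE 0.06, adjusted p = 6.3e-05). Starved cells held 44.3 ± 1.15 and control cells 88.3 ± 1.91 CPM. Srebf2, which encodes the main sterol factor, and its inhibitor Insig1 were not called (-0.10 with adjusted p = 0.541, and 0.02 with adjusted p = 0.918). On re-addition 21 of the 25 genes had been higher and 1 lower.

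Fatty acid genes gave 8 lower and 1 higher of 20, with a median of -0.35 (15 and 2 in the 6-library fit, and 5 lower when 1 of the 6 was left out, or 6 for re-added replicate 3). Scd2, a desaturase, stood at 2009, 2088 and 2271 CPM in re-added and at 1177, 1231 and 1102 CPM in Rap libraries (log2 fold change -0.86 with SE 0.08, adjusted p = 1.0e-04). Fasn, the fatty acid synthase, went from 339, 330.1 and 384 to 194, 204 and 176 CPM (log2 fold change -0.87 with SE 0.11, adjusted p = 6.7e-04), and Srebf1 from 402, 426 and 439 to 277, 269 and 279.7 CPM (log2 fold change -0.62 with SE 0.10, adjusted p = 0.00226). Lpin1 was the member that rose, from 17.4, 21.01 and 21.4 to 50.5, 44.7 and 41.3 CPM (log2 fold change 1.19 with SE 0.12, adjusted p = 1.5e-04). It encodes a phosphatidate phosphatase that mTORC1 phosphorylates and that restrains SREBP in the nucleus. Acly, the abundant enzyme that makes cytosolic acetyl-CoA, was not called (-0.03, adjusted p = 0.921).

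Among glycolysis genes all calls were falls. Of 26 tested genes of glycolysis, glucose uptake and lactate, 10 were lower and 0 higher, with a median of -0.23 (17 lower in the 6-library fit, and 6 without re-added replicate 2, Rap replicate 1 or Rap replicate 2). Pfkfb3, which makes the activator of phosphofructokinase and whose promoter stretch is printed above, stood at 58.2, 57.3 and 60.8 CPM in re-added and at 28.8, 28.7 and 25.2 CPM in Rap libraries (log2 fold change -1.09 with SE 0.14, adjusted p = 7.7e-04). Slc16a3, a lactate exporter, went from 203, 199 and 199.9 to 132, 137 and 138 CPM (log2 fold change -0.57 with SE 0.06, adjusted p = 1.5e-04), against 718 CPM in control and 59.5 CPM in starved cells. Gapdh and Pkm, 2 abundant members, were not called (-0.15 and -0.03). HIF1 targets outside glycolysis went both ways in the 12-library fit, with 4 higher and 5 lower of 21 (4 and 11 in the 6-library fit, 4 and 7 on TPM values, and 3 lower without re-added replicate 3, Rap replicate 2 or Rap replicate 3). Bnip3l, a receptor for mitophagy, rose (0.99, adjusted p = 4.7e-04), and Vegfa, the endothelial growth factor, fell (-0.42, adjusted p = 0.00325).

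Other metabolic lists held fewer calls in the 12-library fit. Pentose phosphate and nucleotide synthesis genes gave 6 lower and 1 higher of 30, a median of -0.19, and 17 lower in the 6-library fit. Without control replicate 2 the falls numbered 10, and without any 1 of the 6 libraries other than re-added replicate 1 they numbered 3. Ctps, which makes CTP, went from 78.1, 83.9 and 82.7 to 63.4, 57.5 and 57.6 CPM (log2 fold change -0.45 with SE 0.07, adjusted p = 0.0015). Genes of the TCA cycle gave 2 lower of 22 (12 in the 6-library fit). The falls numbered 5 without control replicate 2 or starved replicate 2 or 3, 6 without starved replicate 1, and 1 without re-added replicate 2 or Rap replicate 3. Among the 2 was Idh3a at 234, 228 and 227 against 156, 165 and 165 CPM (log2 fold change -0.50 with SE 0.08, adjusted p = 0.00201). Nuclear genes of the respiratory chain gave 1 lower of 36 and a median of -0.02, with 12 lower and 2 higher in the 6-library fit. Of 11 polyamine genes the 6-library fit called 3 higher and 2 lower, and the 12-library fit called only the spermidine synthase gene Srm, at 98.01, 114 and 114 against 60.5, 57.5 and 57.2 CPM (log2 fold change -0.89 with SE 0.13, adjusted p = 0.0015).

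A part of the autophagy genes was higher with Rap. Autophagy wraps cytoplasm in a double membrane and delivers it to lysosomes. Of 44 tested autophagy genes and receptors, 14 were higher and 2 lower, with a median of 0.27 (23 higher and 4 lower in the 6-library fit, and 12 or 13 higher when 1 of the 6 was left out). Ulk1 and Atg13 encode the kinase and the adaptor of the initiating complex, both of which mTORC1 phosphorylates. Ulk1 stood at 19.5, 17.1 and 22.4 CPM in re-added and at 44.2, 42.9 and 41.5 CPM in Rap libraries (log2 fold change 1.12 with SE 0.11, adjusted p = 9.3e-05). Atg13 stood at 76.2, 73.6 and 74.1 against 163, 164 and 163 CPM (log2 fold change 1.13 with SE 0.08, adjusted p = 8.2e-06), and its Rap level lay above its means of 123 ± 8.96 CPM in starved and 82.7 ± 8.22 CPM in control cells.

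Genes of the ubiquitin-like proteins that are conjugated to the autophagosome membrane rose as well. Map1lc3b went from 78.9, 78.2 and 73.8 to 152, 158 and 168 CPM (log2 fold change 1.05 with SE 0.08, adjusted p = 2.4e-05), and Gabarapl1 from 66.2, 65.98 and 61.9 to 142, 135 and 146 CPM (log2 fold change 1.13 with SE 0.08, adjusted p = 1.1e-05). Starved cells held 244 and 320.5 CPM of these 2 transcripts, which is above all Rap libraries. Calcoco1, a receptor for turnover of the endoplasmic reticulum, rose too (1.16, adjusted p = 1.7e-05). The close homologue Gabarap was not called (0.30, adjusted p = 0.122). Atg9b and Atg3 were lower (-0.82 and -0.28), and each lost the call without re-added replicate 2 or 3 and without Rap replicate 2.

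Lysosomal genes were called higher in 12.2% of cases, against 4.55% over all genes. Of 41 tested lysosomal enzymes and membrane proteins, 5 were higher and 0 lower, with a median of 0.15 (14 higher in the 6-library fit, 8 without control replicate 2, and 3 without re-added replicate 2 or 3 or Rap replicate 3). Rnf152, a ubiquitin ligase of the lysosomal membrane that acts on Rag GTPases, stood at 3.31, 2.24 and 2.39 against 6.23, 6.67 and 5.54 CPM (log2 fold change 1.22 with SE 0.20, adjusted p = 0.00314), far below its starved mean of 17.8 ± 3.999 CPM. Tmem55b, a phosphatase that places lysosomes in the cell, rose by 0.51 (adjusted p = 0.00386). Psap and Cd63, 2 abundant members, were not called (0.10 and 0.29). Ctss, a cathepsin of leukocytes chosen after its values were seen, was the lowest member at -2.49 without a call; re-added replicate 1 held 32.4 CPM, and the other 5 libraries 2.06 to 2.62 CPM. Subunits of the V-ATPase, the lysosomal proton pump, gave 1 higher of 18, and 4 higher and 1 lower in the 6-library fit. It was Atp6v1f (0.39, adjusted p = 0.0179), and the call was lost without any 1 of the re-added libraries and without Rap replicate 3.

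Regulators of mTORC1 itself were called about as often as all genes. In the list of mTOR complexes, regulators and substrates, 2 were higher (4.76%) and 1 lower (2.38%) of 42 (8 and 9 in the 6-library fit, 2 and 5 on TPM values, and 4 higher without control replicate 2), with a median of -0.02. Deptor, which encodes an inhibitor bound to mTOR, stood at 21.7, 22.3 and 23.7 CPM in re-added and at 61.2, 60.7 and 57.2 CPM in Rap libraries (log2 fold change 1.40 with SE 0.10, adjusted p = 7.3e-06), with 70.4 ± 6.05 CPM in starved cells. The other higher member was Ulk1 and the lower one Eif4ebp1, both described above. Rheb was at 129, 135 and 130.5 against 149.5, 150.4 and 161 CPM (log2 fold change 0.22 with SE 0.10, adjusted p = 0.21) and did not pass. Flcn, the folliculin that acts on RagC and is a known TFEB target, was called at 20.5, 18.8 and 20.4 against 27.5, 26.1 and 27.9 CPM (log2 fold change 0.45 with SE 0.09, adjusted p = 0.00927), and lost the call without re-added replicate 2. Its starved mean was 112 ± 12.5 CPM, so that the difference with Rap was a small part of the fall on re-addition (log2 fold change -2.50). Rragc, another gene that fell on re-addition (-0.86), was not called (-0.01, 95% interval -0.17 to 0.15).

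**Figure D3:**
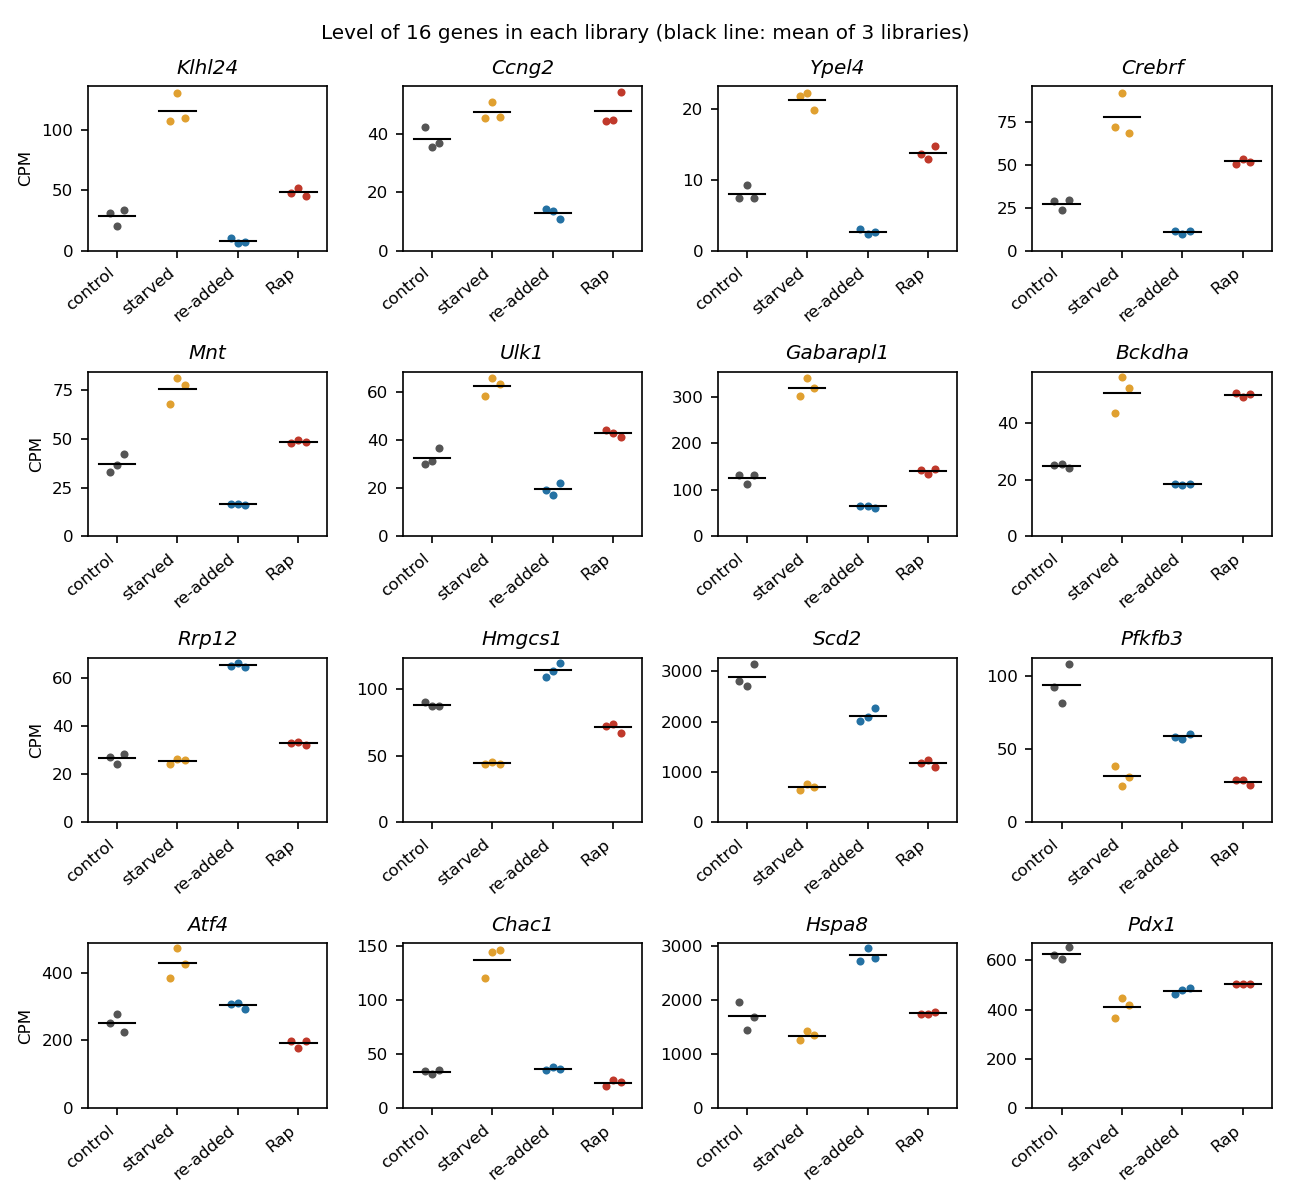
Each panel shows 1 gene, with its CPM in the 3 libraries of each group (points) and their mean (black line). Klhl24, Crebrf, Mnt and Gabarapl1 with Rap lie between re-added and starved levels, Rrp12, Hmgcs1 and Scd2 with Rap lie below re-added levels, Atf4 and Chac1 with Rap lie below all other groups, and Pdx1 with Rap was not called against re-added cells.

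Several FoxO factors and targets were higher with Rap. Of 29 listed genes 26 were tested, and 10 were higher and 0 lower, with a median of 0.35 (12 and 1 in the 6-library fit, and 6 higher without re-added replicate 2 or 3 or Rap replicate 2). Besides Klhl24, Fbxo32, the muscle ubiquitin ligase atrogin-1, stood at 5.399, 4.29 and 4.56 CPM in re-added and at 23.6, 21.1 and 20.4 CPM in Rap libraries (log2 fold change 2.19 with SE 0.11, adjusted p = 2.2e-06). Ccng2, a cyclin that accompanies cell cycle arrest, went from 14.2, 13.7 and 10.96 to 44.4, 44.6 and 54.2 CPM (log2 fold change 1.88 with SE 0.12, adjusted p = 4.6e-06), which is near its mean of 47.3 ± 3.01 CPM in starved cells. Bcl2l11, the pro-apoptotic BIM gene, went from 17.2, 16.1 and 16.3 to 30.9, 32.6 and 28.9 CPM (log2 fold change 0.90 with SE 0.07, adjusted p = 3.0e-05). Txnip, an arrestin that restrains glucose uptake, rose by less (0.60, adjusted p = 8.4e-04), and its Rap libraries at 113, 119.5 and 121 CPM stayed far below the starved mean of 334 CPM. Irs2, the main insulin receptor substrate of β-cells, did not pass here (log2 fold change 0.48 with SE 0.19, adjusted p = 0.168), but did in the 6-library fit (0.45, adjusted p = 9.6e-04). The list of insulin receptor and PI3K-AKT signalling gave 5 higher and 0 lower of 28 tested, but 7 higher and 5 lower in the 6-library fit, 2 higher without re-added replicate 1 or 2 or Rap replicate 1 or 2, 3 higher without starved replicate 3 or re-added replicate 3, and 1 higher and 3 lower on TPM values. Inpp5k, a phosphatase that ends PI3K signals, was its clearest member, at 14.4, 14.4 and 13.4 against 24.3, 23.1 and 25.6 CPM (log2 fold change 0.79 with SE 0.08, adjusted p = 1.0e-04).

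The Ypel genes encode small conserved zinc-binding proteins, of which YPEL5 is part of a ubiquitin ligase. All 5 were higher with Rap, and all 5 kept the call when any 1 of the 6 libraries was left out. Ypel4 stood at 3.11, 2.29 and 2.56 CPM in re-added and at 13.6, 12.96 and 14.8 CPM in Rap libraries (log2 fold change 2.38 with SE 0.14, adjusted p = 3.5e-06), and Ypel1 at 3.02, 2.14 and 2.39 and 10.7, 10.98 and 11.2 CPM (log2 fold change 2.12 with SE 0.16, adjusted p = 1.2e-05). Ypel5, Ypel3 and Ypel2 differed by 0.99, 0.91 and 0.84, with adjusted p = 1.1e-04, 4.4e-04 and 7.6e-04. All 5 had fallen on re-addition. Ypel1 with Rap was near its starved mean of 11.2 CPM, whereas Ypel3 with Rap, at 32.1, 26.6 and 29.3 CPM, lay below the starved mean of 56.5 CPM and the control mean of 46.9 CPM.

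In the MYC network, the members that rose were mostly partners of MAX that oppose MYC. Of 13 tested genes 5 were higher and 0 lower, with a median of 0.37 (0.07 on TPM values; 6 higher and 1 lower in the 6-library fit; 3 higher without re-added replicate 2, Rap replicate 1 or Rap replicate 2). Mnt, a repressor that competes with MYC for MAX, stood at 16.5, 16.6 and 15.9 CPM in re-added and at 47.8, 49.3 and 48.6 CPM in Rap libraries (log2 fold change 1.57 with SE 0.10, adjusted p = 3.9e-06). Mxd4, of the same kind, went from 37.01, 34.4 and 36.1 to 101, 96.6 and 87.2 CPM (log2 fold change 1.41 with SE 0.09, adjusted p = 5.8e-06), and Mxi1 from 17.2, 16.6 and 17.8 to 33.7, 31.4 and 32.4 CPM (log2 fold change 0.92 with SE 0.08, adjusted p = 6.0e-05). The call of Mxd1 was lost without re-added replicate 2 or 3 and without Rap replicate 1 or 2, and that of Mycn without any of the 6 libraries other than re-added replicate 3. Max (-0.09, adjusted p = 0.499) was not called, and Myc, added here after its values were seen, was at 5.35, 4.14 and 5.41 against 4.45, 4.25 and 5.69 CPM (log2 fold change -0.05 with SE 0.19, adjusted p = 0.898). DNA replication, cyclin and mitosis genes gave 2 higher and 1 lower of 35 (3 and 7 in the 6-library fit, 1 and 4 on TPM values, and 1 higher without any 1 of the 6 libraries other than Rap replicate 2), with Mcm7 of the replicative helicase at 0.45 (adjusted p = 0.00256).

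Chaperone genes of the cytosol and mitochondria were mostly called lower with Rap, and the few calls in the endoplasmic reticulum were rises. Of 25 tested cytosolic and mitochondrial heat shock chaperones, 14 were lower and 1 higher, with a median of -0.34 (20 and 1 in the 6-library fit, and 9 lower without Rap replicate 3). The rise, of Bag3 (0.26), lost its call without any 1 of the 6 libraries and on TPM values. Hspa8, the constitutive HSC70, stood at 2722, 2965 and 2786 CPM in re-added and at 1744, 1741 and 1779 CPM in Rap libraries (log2 fold change -0.69 with SE 0.10, adjusted p = 0.0013), near its control mean of 1694 ± 259 CPM. Its nucleotide exchange factor Hsph1 went from 207, 214 and 212 to 107, 118 and 109 CPM (log2 fold change -0.92 with SE 0.11, adjusted p = 5.4e-04). The mitochondrial chaperones Hspd1 and Hspa9 fell by similar amounts (-0.64, adjusted p = 9.5e-04, and -0.64, adjusted p = 8.6e-04). Of 32 genes of folding and stress in the endoplasmic reticulum, 3 were higher and 0 lower, namely Crebrf, Derl3 and Dnajb9, while 5 were higher and 3 lower in the 6-library fit and 3 and 3 on TPM values. Derl3, of the export channel for misfolded proteins, went from 14.8, 12.3 and 12.96 to 35.5, 38.01 and 42.6 CPM (log2 fold change 1.53 with SE 0.14, adjusted p = 6.0e-05), above its starved and control means of 19.2 and 6.36 CPM. Hspa5, the main chaperone BiP, stood at 3150, 3208 and 3149 against 3085, 3113 and 3160 CPM (log2 fold change -0.02 with SE 0.08, adjusted p = 0.896; 95% interval -0.20 to 0.16). Proteasome subunits gave 9 lower and 0 higher of 33, with a median of -0.18 (22 lower in the 6-library fit, but 2 or 3 without any 1 of the 6 libraries other than re-added replicate 1). Psmd6 was at 133, 147 and 139 against 97.9, 100.5 and 102 CPM (log2 fold change -0.49 with SE 0.08, adjusted p = 0.00251).

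The list of β-cell transcription factors gave 2 higher and 0 lower of 25 tested (8% higher, against 4.55% over all genes, and 6 and 3 in the 6-library fit; 5 higher without control replicate 2, and 1 without any 1 of the 6 libraries other than re-added replicate 1), and insulin, prohormone processing and granule cargo gave 1 higher of 20 (5.00% higher, 8 and 1 in the 6-library fit, and 0 and 1 on TPM values). Pdx1 (chromosome 5, 147269959 to 147275848, plus strand), which drives insulin transcription and is named in the title of the series, stood at 462, 478 and 488 CPM in re-added and at 504, 505 and 505 CPM in Rap libraries. The groups did not overlap, as in 38.90% of all genes, and the difference did not pass (log2 fold change 0.08 with SE 0.07, adjusted p = 0.546; 95% interval -0.08 to 0.25), nor did it in the 6-library fit (0.05, adjusted p = 0.326). Ins1 was at 1871, 2181 and 1776 against 2493, 2270 and 2416 CPM (log2 fold change 0.30 with SE 0.12, adjusted p = 0.161) and Ins2 at 17170, 19950 and 16680 against 22150, 20050 and 21690 CPM (log2 fold change 0.25 with SE 0.12, adjusted p = 0.264). Both passed in the 6-library fit, by 0.27 (adjusted p = 0.0193) and 0.22 (adjusted p = 0.0299). Mafa, another activator of insulin genes, was at 242, 325 and 336 against 309, 245 and 243 CPM, with overlapping groups and no call (log2 fold change -0.18 with SE 0.28, adjusted p = 0.748). Without re-added replicate 1 in the 6-library fit it was lower with Rap (-0.34, adjusted p = 0.00479). Nkx2-2, a factor of endocrine identity, was higher, at 136, 136 and 146 against 193, 197 and 191 CPM (log2 fold change 0.48 with SE 0.09, adjusted p = 0.00927). Of the other calls in these lists, Isl1 (0.39, adjusted p = 0.0234), another endocrine factor, lost its call without 5 of the 6 libraries, re-added replicate 1 being the exception. Pam (0.38, adjusted p = 0.0131), the enzyme that amidates peptide hormones, lost it without re-added replicate 2 or 3 and without Rap replicate 2 or 3. Glucose sensing, channel and exocytosis genes gave 3 higher of 35 tested (8.57%, and 1 without re-added replicate 1 or 3 or any Rap replicate), among them the cation channel gene Trpm4 (0.61, adjusted p = 0.00256), but 5 higher and 8 lower were called in the 6-library fit, and 2 and 5 on TPM values. The channel subunit gene Abcc8, the target of sulfonylureas, was not called (0.18, adjusted p = 0.356). Of 14 tested genes that mature β-cells keep low, 3 were lower (5 in the 6-library fit, and 1 without Rap replicate 1). The lactate and pyruvate transporter gene Slc16a1 was among them (-0.55, adjusted p = 0.00179).

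Some receptors, ligands and targets of the activin and TGF-β pathway were higher with Rap. Of 33 tested members 10 were higher and 0 lower, with a median of 0.18 (10 in the 6-library fit, 8 without re-added replicate 1, and 5 or 6 without re-added replicate 2 or 3 or Rap replicate 1 or 2). Acvr2b, an activin receptor, was low, at 2.33, 2.38 and 2.73 CPM in re-added and 6.56, 6.79 and 5.31 CPM in Rap libraries (log2 fold change 1.32 with SE 0.17, adjusted p = 7.3e-04). Id3, an inhibitor of basic helix-loop-helix factors and a target of BMP signals, went from 59.1, 61.2 and 58.3 to 116, 122 and 134 CPM (log2 fold change 1.06 with SE 0.11, adjusted p = 1.8e-04). Bambi, a decoy receptor, went from 69.5, 72.2 and 68.8 to 126, 119 and 134 CPM (log2 fold change 0.85 with SE 0.11, adjusted p = 5.4e-04), and the ligand gene Tgfb1 from 108, 114 and 121 to 184, 178 and 176 CPM (log2 fold change 0.65 with SE 0.09, adjusted p = 0.00108). The receptor gene Tgfbr1 was not called (0.14, adjusted p = 0.57). Tgfbr2, named after its values were seen, was at -1.61 without a call, with 10.1 CPM in re-added replicate 1 and 0.81 to 1.75 CPM in the other 5 libraries.

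Stress and clock genes were mixed. Immediate early genes gave 6 higher and 1 lower of 30 tested (12 and 2 in the 6-library fit). Dusp6, a phosphatase of ERK that is induced by ERK signalling, went from 63.4, 61.6 and 59.4 to 90.6, 86.2 and 89.6 CPM (log2 fold change 0.53 with SE 0.06, adjusted p = 2.8e-04), and Dusp1 and Junb rose as well (0.69, adjusted p = 4.1e-04, and 0.62, adjusted p = 0.00227). Egr1 was lower (-0.35, adjusted p = 0.041), but not without re-added replicate 2 or 3 or without any of the Rap replicates. Among clock genes 3 were higher and 3 lower of 19 (4 and 5 in the 6-library fit, and 1 lower without re-added replicate 3, Rap replicate 2 or Rap replicate 3). Nr1d1, a REV-ERB repressor, went from 10.2, 8.34 and 8.06 to 14.8, 16.2 and 14.3 CPM (log2 fold change 0.77 with SE 0.13, adjusted p = 0.00328), while Per2 went from 30.4, 29.97 and 34.1 to 15.7, 16.3 and 17.1 CPM (log2 fold change -0.94 with SE 0.15, adjusted p = 0.00226). Among 24 p53 targets, 3 were higher and 2 lower (5 and 5 in the 6-library fit, 3 and 4 on TPM values). Bbc3, the apoptosis gene PUMA, was higher (1.02, adjusted p = 5.7e-04) and the nuclease gene Aen lower (-0.79, adjusted p = 1.6e-04).

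Of 22 sphingolipid genes 3 were higher (13.6%) and 0 lower, and 6 and 1 in the 6-library fit, and 5 higher without control replicate 2. Among them was Sphk1, which makes sphingosine 1-phosphate, at 2.09, 1.72 and 1.62 against 4.99, 4.58 and 4.18 CPM (log2 fold change 1.34 with SE 0.16, adjusted p = 4.1e-04). Its starved mean was 26.1 ± 4.28 CPM, above all Rap libraries. Kdsr, of ceramide synthesis, went from 10.7, 9.58 and 10.5 to 21.6, 19.5 and 22.98 CPM (log2 fold change 1.06 with SE 0.14, adjusted p = 6.7e-04). Of 15 genes of N-glycan trimming and branching 2 were higher (13.3%) and 0 lower, and 4 and 0 in the 6-library fit, with the mannosidase gene Man1a at 367, 365 and 379.5 against 545, 582 and 554 CPM (log2 fold change 0.60 with SE 0.09, adjusted p = 0.00208). Glutathione and NRF2 genes gave 2 higher and 3 lower of 23, and 6 and 7 in the 6-library fit. Without any 1 of the 6 libraries they gave 0 or 1 in each direction, and without control replicate 2 they gave 5 lower. Iron genes gave 1 higher and 2 lower of 14 (2 and 5 in the 6-library fit, and 1 lower without re-added replicate 3 or Rap replicate 1 or 2), Meltf being the largest change. The rise, of Slc40a1 (0.43), lost its call without any 1 of the 6 libraries and on TPM values. Of 5 genes of Txnip and the α-arrestins 2 were higher (3 in the 6-library fit, and 1 without any 1 of the 6 libraries other than Rap replicate 1), and of 11 genes of folliculin, Rag GTPases and TFEB factors 2 were higher (3 in the 6-library fit). The latter were Flcn and Mitf, and the call of Mitf (0.67, adjusted p = 0.0446) was lost when any 1 of the re-added libraries or Rap replicate 1 or 3 was left out, and on TPM values.

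Promoter motifs were counted over the 12089 tested genes that matched a RefSeq window, searching GTAAACA and the other motifs on either strand. The FoxO motif was present for 53 of 590 matched genes higher with Rap (8.98%), for 13 of 466 lower genes (2.79%) and for 2.89% of genes without a call. The share over all 32851 RefSeq windows was 3.65%. TCACGTGA was present for 26 higher genes (4.41%), 5 lower genes (1.07%) and 1.86% of uncalled genes, and in 0.974% of all windows. TGATGCAA was present for 0 higher genes, 11 lower genes (2.36%) and 0.689% of uncalled genes. GACGTG was present for 16.5% of lower, 11% of higher and 9.86% of uncalled genes. The plain E-box CACGTG was present for 15.5% of lower, 13.7% of higher and 10.7% of uncalled genes, and the sterol element core CACCCCAC for 3.43%, 4.24% and 3.92%. Over all windows the shares were 0.895% for TGATGCAA, 6.38% for GACGTG, 7.15% for CACGTG and 2.87% for CACCCCAC. These count single windows, whereas a gene counts if any of its windows holds the motif, so the 2 kinds of share are not alike. Over all tested genes with a window the shares were 3.18% for GTAAACA, 1.95% for TCACGTGA and 0.72% for TGATGCAA. They were 10.2% for GACGTG, 11.1% for CACGTG and 3.91% for CACCCCAC. No test was made of these shares, and a match is not a binding site.

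For each of the 6 motifs, the share of tested members of its lists that held it, called or not, was above the share of all tested genes. Of the FoxO list 6 higher members had a window, and 2 of them held the FoxO motif. Of the lists of lysosomal, V-ATPase, autophagy and TFEB genes, 20 higher members had a window and 0 held TCACGTGA, while 8 of 71 uncalled members did. Of 2 lower members 1 held it, namely Atg3. The share over the 93 members was 9.68%, against 1.95% of all tested genes with a window. In the ATF4 list, 3 of 13 lower members with a window held TGATGCAA, against 5 of 17 uncalled ones (26.7% of the 30 members, against 0.72% of all tested genes). Of the glycolysis and HIF1 lists 15 of 42 members held GACGTG (35.7%, against 10.2% of all tested genes with a window), 6 of 14 lower ones and 8 of 26 uncalled ones. Of the ribosome biogenesis list 9 of 41 held CACGTG (22%, against 11.1%), namely 9 of 30 lower members and 0 of 11 uncalled ones. Of the cholesterol list 2 of 17 held CACCCCAC, 1 of 8 lower and 1 of 9 uncalled members. Of the genes printed above, Hbp1, a repressor of cell cycle genes, stood at 33.2, 31.4 and 29.6 CPM in re-added and at 96.8, 95.9 and 96.4 CPM in Rap libraries (log2 fold change 1.62 with SE 0.09, adjusted p = 2.2e-06), and Dyrk1b, a kinase of quiescent cells, at 21.2, 18.96 and 21.2 and 58.2, 60.5 and 55.2 CPM (adjusted p = 3.1e-05). Pim1, a kinase that favours survival, went from 31.5, 26.4 and 29.8 to 66.99, 66.3 and 62.6 CPM (log2 fold change 1.16 with SE 0.12, adjusted p = 1.2e-04). Aars, the alanine enzyme of tRNA loading, went from 541, 579 and 572 to 403, 413 and 395 CPM (log2 fold change -0.48 with SE 0.08, adjusted p = 0.00331).

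**Figure D4:**
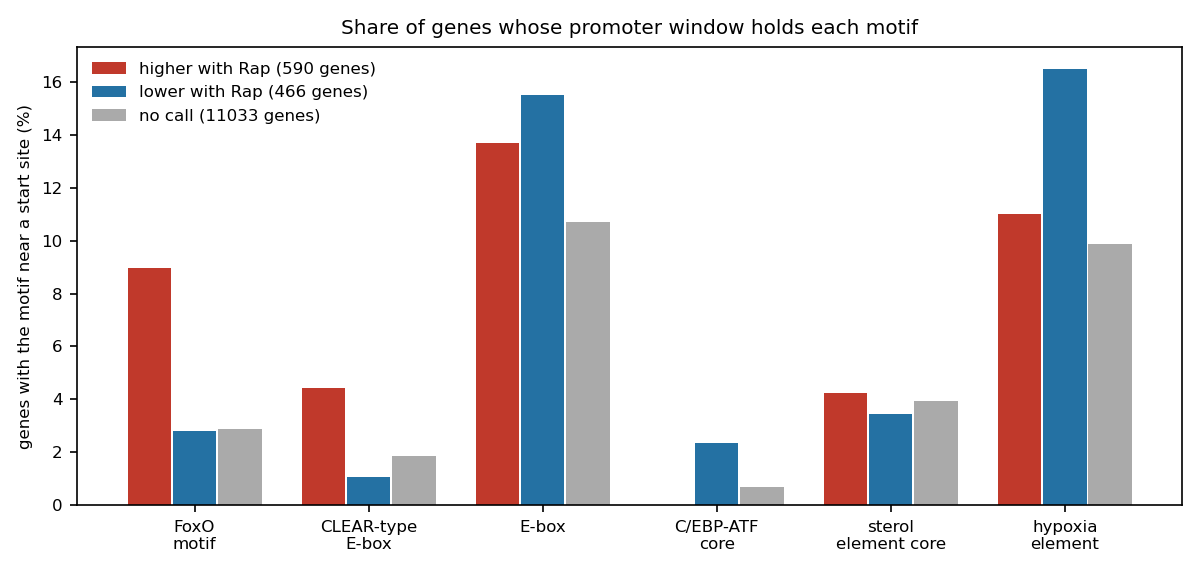
Bars give the percentage of genes whose promoter window holds the named motif on either strand, among the 590 genes higher with Rap (red), 466 lower with Rap (blue) and 11033 without a call (grey). The FoxO motif reaches 8.98% in red against 2.89% in grey, and no red bar is seen for the C/EBP-ATF core, where 0 genes matched.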

How the data were processed

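RNA was sequenced as 150-base paired ends from 12 libraries, per the labels' protocols. The authors deposited raw read counts per Ensembl gene and library, and a TPM table, counts per exon length scaled to a common total, which also gave the gene names. Per the submitters' processing notes, they worked with GRCm38.p6 and name Subread 2.0.1 as well as limma 3.46.0. Which aligner, strand setting or annotation release was used is not stated in the labels, so reads of overlapping or near-identical genes are uncertain.

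Counts were analysed with edgeR 4.0.16 (R 4.3.3): filterByExpr (minimum count 10, total 15), TMM scaling, 1 quasi-likelihood fit of 12 libraries with 4 group means (8 residual degrees of freedom), contrast Rap minus re-added, Benjamini-Hochberg threshold 0.05. CPM use TMM-scaled totals, except the marker sums. At 5 CPM a gene has 92.8 to 128 reads. Replicate numbers did not pair the libraries (correlations of same-numbered deviations -0.005, -0.014 and 0.001). In counts simulated for Rap against re-added over 15928 genes, edgeR recovered 30.00% of log2 changes of 0.5, 62.00% of those of 1 and 92.00% of those of 2. False calls made up 4.46% of the calls, 7.69% with the 6 libraries only and 18.47% with DESeq2. With the 6 libraries only, 18.00% of changes of 0.5 were recovered, fewer than with 12, whereas in the real counts that fit called 3959 genes against 1344. The simulated control and starved libraries were given re-added means and lacked their real differences. Simulated re-added and Rap libraries took their spread from all 12 real libraries, although real control and starved replicates differed more among themselves. These rates may therefore not hold for the real counts.

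The comparison, its 43 gene lists and the rule for named genes (Pdx1, Ins1, Ins2 and Mafa, the 10 largest rises and falls of at least 5 CPM with a proper symbol and groups that do not overlap, and per list the 5 leading called, 3 opposing and 2 abundant uncalled genes) were chosen with earlier results of these data known. Alternatives were other scalings, no filter, DESeq2 1.42.0, limma 3.58.1 on log2(TPM + 1) or log2(TPM + 0.1), 6 libraries, a replicate block, a marker covariate and each library left out. Members under the filter were Slc43a1, Trim63, G6pc, Pck1, Irs4, Egr3, Inhbe, Nr5a2, Erp27, Doc2b and Gast.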

Additional observations from a re-analysis of the deposited data

How the results depend on the processing

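Of the 178 called genes that the naming rule took, 116 kept direction and call under every alternative, 0 reversed in any, and 39 of 83 uncalled ones were called under at least 1. The main counts were 1344 called, 766 higher and 578 lower, with 107 at least 2-fold (100 higher, 7 lower). With RLE factors 17 genes were at least 2-fold lower, with upper-quartile factors 13, with no filter on low counts 24, and with the marker sum as a covariate 22. DESeq2 called 2306 genes, with 1171 lower and 59 at least 2-fold lower. By limma on log2(TPM + 1) 1381 were lower, with 52 at least 2-fold higher and 23 lower, and on log2(TPM + 0.1) 1374 were lower and 39 at least 2-fold lower; no filter gave 45.84% rises among the calls. With the 6 libraries only, 3959 were called, 1829 higher and 2130 lower, with 168 at least 2-fold, 47 of them lower. With these less re-added replicate 1, an alternative chosen after seeing the data, 4009 were called, 1864 higher and 2145 lower, with 197 at least 2-fold, 167 higher and 30 lower. The cause of these differences was not tested.

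Leaving out each of the 12 libraries in turn gave 635 (without re-added replicate 3) to 2058 calls (without control replicate 2), 390 to 1168 higher, 245 to 890 lower, and 4 to 32 at least 2-fold lower; 78 to 107 were at least 2-fold higher. Without Rap replicates 1, 2 and 3 the calls were 693, 665 and 687, and without re-added replicate 2 they were 665. The replicate block, in a pairing that the correlations did not bear out, gave 1067 calls (621 higher, 446 lower), 1053 of them among the 1344. The low number of libraries limits the precision of the smaller changes.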
